A study of Mus musculus and Homo sapiens with 107 samples.

Results

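The expression of 10 genes of pericellular proteolysis and of the start of coagulation was examined in lung cancer cells given an inhibitor of chromatin remodelling: PLAU, PLAT and PLAUR, the tissue factor gene F3, the matrix metalloproteinase genes MMP1, MMP2 and MMP14, and the inhibitor genes TIMP1, TIMP2 and TIMP3. They were chosen by Ensembl identifier, given beside each gene where its results begin, and all 10 were found among the 22842 identifiers present in both count tables. The cells were H1299 and A549, 2 established human cell lines from non-small-cell lung cancers. The groups were H1299 with BRM014, H1299 with DMSO, A549 with BRM014 and A549 with DMSO, with 3 RNA-seq libraries each, taken after 12 h. BRM014 is an inhibitor of BRM and BRG1, the alternative ATPases of the SWI/SNF remodelling complexes, and was given at 5 µM. DMSO, the solvent, was given at 0.05% by the titles and the treatment protocol and at 0.5% by the treatment field, and which is right is not settled here. The labels give the genotype of both lines as wt. As background, both lines are used in the field as cells that lack functional BRG1, so that BRM is the ATPase left to the inhibitor. H1299 was grown in RPMI and A549 in F12-K, and the libraries had 8 PCR cycles for H1299 and 9 for A549, so the line, its medium and its PCR cycle number cannot be told apart.

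Urokinase (PLAU) and tissue-type plasminogen activator (PLAT) are secreted proteases that cut plasminogen to plasmin, and PLAUR is the membrane-anchored receptor that holds urokinase at the cell surface. Plasmin breaks down fibrin and matrix proteins and can activate pro-metalloproteinases. The active metalloproteinases are held in check by the tissue inhibitors (TIMPs). Tissue factor binds factor VII and starts coagulation, and in carcinomas these genes are known for their part in invasion and in clotting around the tumour.

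Levels are given in CPM, a gene's counts scaled by the library's total, with TMM scaling over the 12 libraries. CPM is not corrected for transcript length, so levels are compared between groups for a gene and not between genes. Library totals ran from 30602193 to 41780029 counts in H1299 with BRM014 and from 28412113 to 40072734 in H1299 with DMSO. In A549 they ran from 42417643 to 44910378 with BRM014 and from 40684360 to 50177678 with DMSO. Headers of 2 A549 BRM014 columns are the same, so these libraries carry no replicate number and are called libraries a and b. The counts of these libraries differ by more than sampling noise gives (chi-square of 4.99 per degree of freedom, 15093 genes), and they were kept as separate libraries. Library a and DMSO replicate 1 of A549 deviated from their group means together, with a Pearson r of 0.693 across 10652 genes, which are not independent replicates, and so did BRM014 replicate 3 and DMSO replicate 3, with an r of 0.483. The 9 such correlations between a BRM014 and a DMSO library ran from -0.628 to 0.693 in A549, and from -0.0865 to 0.0926 in H1299. Each result was refitted without each library, and the A549 response was also refitted with a replicate block, described at the end. The part of this shared deviation in the comparisons between the lines was not tested. The labels do not say whether replicates were separate cultures, so the p-values speak only of the spread among these libraries, which could be technical.

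With BRM014, 7 of the 9 genes tested fell in H1299, and 9 of the 10 changed in A549, 8 of them falling and 1, MMP14, rising. PLAU lost the larger part of its transcript in both lines, to 19.8% of the DMSO mean in H1299 and 20.8% in A549. The lines parted over PLAT, which fell 8.32-fold in A549, and over MMP14, which moved in opposite directions. A gene was called changed at an adjusted p below 0.05 in edgeR's two-sided quasi-likelihood test, adjusted with Benjamini-Hochberg over all genes of the table. By this rule 22% of the 14986 genes tested were called in H1299 and 37% of 15188 in A549, with 12.7% called lower in H1299 and 19.4% in A549, and 17.7% called higher in A549. Every BRM014 library lay below every DMSO library for 7 of 9 genes in H1299, as for 18.6% of all genes tested, and for 8 of 10 in A549, as for 24.8%. The 1 gene with the opposite order in A549 was MMP14, where 23.4% of all genes had that order. Falls of at least 2-fold numbered 2 of 9 genes in H1299 (PLAU and MMP14), where 1.61% of all genes tested fell so far, and 2 of 10 in A549 (PLAU and PLAT), where 4.6% did. The median log2 fold change was -0.66 over the 9 genes in H1299, against 0.00293 over all genes tested, and -0.58 over the 10 genes in A549, against 0.0169. The genes were chosen with earlier results of these data known, so these contrasts with all genes only describe the genes chosen. Changes are relative to the rest of each library, because the spike-in RNA named in the protocol was not used here. In these bulk libraries, fewer cells with a transcript and less of it per cell cannot be told apart.

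**Figure D1:**
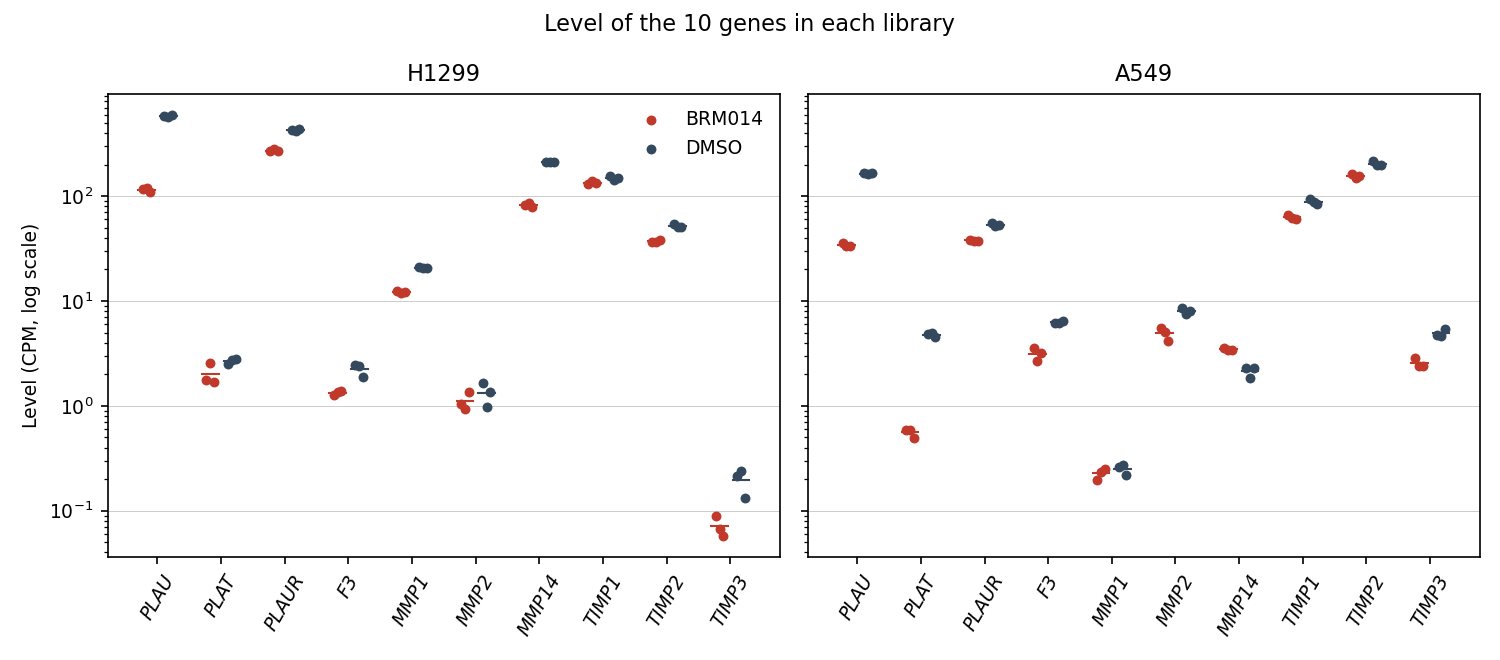
Level of each gene in CPM (log scale) in the 3 BRM014 and 3 DMSO libraries of H1299 (left) and A549 (right); points are libraries and short lines are group means. PLAU is lower with BRM014 in both lines, the PLAT groups overlap in H1299 and stand apart in A549, and MMP14 is lower in H1299 and higher in A549.

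PLAU (ENSG00000122861), the urokinase gene, had 117, 121 and 109 CPM in the H1299 BRM014 libraries, against 578, 573 and 600 CPM in the H1299 DMSO libraries. In A549 it had 35.7, 33.4 and 33.4 CPM in BRM014 libraries a, b and replicate 3, against 166, 161 and 165 CPM in the DMSO libraries. In each line every BRM014 library lay far below every DMSO library. The fall was 5.04-fold in H1299 (log2 fold change -2.33, with a standard error, SE, of 0.03, edgeR adjusted p = 2.42e-33) and 4.72-fold in A549 (log2 fold change -2.24, SE 0.05, edgeR adjusted p = 3.25e-11). Among all genes tested, this log2 fold change ranked 42 from the lowest of 14986 in H1299 and 122 from the lowest of 15188 in A549. The difference of the falls between the lines was -0.07 on the log2 scale, H1299 minus A549, with a 95% interval of -0.19 to 0.05 (edgeR adjusted p = 0.463). Differences of up to 0.19 on the log2 scale with the larger fall in H1299, and of up to 0.05 with the larger fall in A549, lie inside this interval. It speaks only of the spread among these libraries.

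PLAT (ENSG00000104368), the tissue-type activator, had 1.78, 2.57 and 1.70 CPM in H1299 with BRM014, against 2.49, 2.71 and 2.77 CPM with DMSO. The H1299 groups overlapped, because BRM014 replicate 2 lay above DMSO replicate 1. The H1299 log2 fold change of -0.37 (95% interval -0.72 to -0.02) had an edgeR adjusted p of 0.132. Without BRM014 replicate 2 it was -0.60 with an edgeR adjusted p of 0.0172, so this library decides the call in H1299. In A549 PLAT had 24, 25 and 20 counts in BRM014 libraries a, b and replicate 3, against 201, 181 and 205 counts in the DMSO libraries. As levels these were 0.592, 0.59 and 0.497 CPM with BRM014, against 4.80, 4.95 and 4.54 CPM with DMSO. The A549 groups stood well apart, and the log2 fold change of -3.06 (SE 0.14, edgeR adjusted p = 1.33e-08) ranked 49 from the lowest of 15188. The response differed between the lines by 2.71 on the log2 scale, H1299 minus A549 (SE 0.24, edgeR adjusted p = 9.38e-09, interaction test). The interaction test called 19.5% of the 16466 genes tested, and 4 of the 9 genes here that were tested in each line alone: PLAT, PLAUR, MMP14 and TIMP1.

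PLAUR (ENSG00000011422), the urokinase receptor, had 268, 281 and 267 CPM in H1299 with BRM014, against 432, 420 and 435 CPM with DMSO. In A549 it had 38.2, 37.6 and 37.6 CPM with BRM014, against 55.3, 51.4 and 52.6 CPM with DMSO. The groups did not overlap in either line, and the receptor kept a larger part of its level than PLAU did. The fall was 1.58-fold in H1299 (log2 fold change -0.66, SE 0.03, edgeR adjusted p = 2.06e-19) and 1.38-fold in A549 (-0.47, SE 0.05, adjusted p = 1.77e-05). The larger fall in H1299 passed the interaction test narrowly, with a log2 difference of -0.17 and an edgeR adjusted p of 0.0367. This call was lost without A549 BRM014 library a, A549 BRM014 library b, A549 DMSO replicate 2 or 3, H1299 BRM014 replicate 1 or 3, or H1299 DMSO replicate 1 or 3, each left out alone. The edgeR adjusted p was then 0.0539 to 0.116, and the log2 difference -0.17 to -0.14.

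F3 (ENSG00000117525), which encodes tissue factor, had 1.28, 1.36 and 1.38 CPM in H1299 with BRM014, against 2.47, 2.41 and 1.88 CPM with DMSO. In A549 it had 3.55, 2.67 and 3.20 CPM with BRM014, against 6.17, 6.16 and 6.51 CPM with DMSO. F3 was thus lower in every BRM014 library than in any DMSO library of its line. The fall was 1.69-fold in H1299 (log2 fold change -0.76, SE 0.19, edgeR adjusted p = 0.0033) and 1.97-fold in A549 (-0.98, SE 0.11, adjusted p = 2.86e-05). The H1299 value rests on 152 counts over the 3 BRM014 libraries and 242 over the 3 DMSO libraries. The log2 difference of the responses was 0.24, H1299 minus A549, with a 95% interval of -0.17 to 0.66 and an edgeR adjusted p of 0.454.

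**Figure D2:**
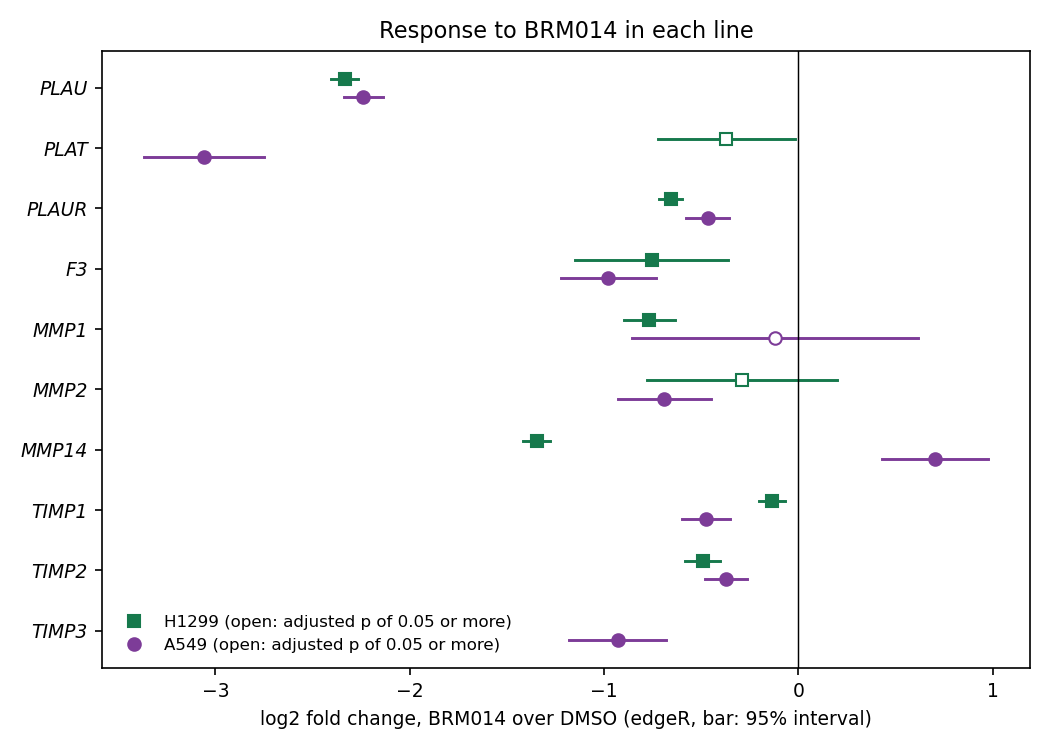
Log2 fold change of each gene, BRM014 over DMSO, in H1299 (squares) and A549 (circles), with 95% intervals; open symbols did not pass the threshold, and TIMP3 was not tested in H1299. PLAU lies near -2.3 in both lines (-2.33 and -2.24), PLAT at -3.06 in A549, and MMP14 at -1.35 in H1299 and 0.70 in A549.

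MMP14 (ENSG00000157227) encodes a membrane-bound metalloproteinase that cuts collagen and, in a complex with TIMP2, activates pro-MMP2. It had 83.1, 86.1 and 79.3 CPM in H1299 with BRM014, against 210.2, 209.7 and 213 CPM with DMSO. In A549, where it was a gene of low level, it had 3.60, 3.38 and 3.38 CPM with BRM014, against 2.32, 1.83 and 2.28 CPM with DMSO. The groups did not overlap in either line, but the order was opposite: the BRM014 libraries were the lower ones in H1299 and the higher ones in A549. The fall in H1299 was 2.54-fold (log2 fold change -1.35, SE 0.03, edgeR adjusted p = 2.41e-26). The rise in A549 had a log2 fold change of 0.70 (SE 0.12, edgeR adjusted p = 0.00088), and rests on 425 counts over the 3 BRM014 libraries and 267 over the 3 DMSO libraries. The responses differed by -2.02 on the log2 scale, H1299 minus A549 (SE 0.11, edgeR adjusted p = 2.07e-12). The mean level in H1299 was 24.0 times that in A549 with BRM014, and 98.4 times with DMSO.

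MMP1 (ENSG00000196611), the interstitial collagenase, had 12.5, 11.9 and 12.3 CPM in H1299 with BRM014, against 21.1, 20.7 and 20.5 CPM with DMSO. These groups stood apart, and the fall was 1.70-fold (log2 fold change -0.77, SE 0.07, edgeR adjusted p = 1e-11). In A549 MMP1 was close to the limit of the depth, with 8, 10 and 10 counts with BRM014, against 11, 10 and 10 counts with DMSO. The A549 log2 fold change of -0.12 had a 95% interval of -0.85 to 0.62 (edgeR adjusted p = 0.831), so a change as large as that in H1299 was not detectable at this depth. The difference of the responses, -0.62 with an interval of -1.30 to 0.05, had an edgeR adjusted p of 0.261.

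MMP2 (ENSG00000087245), a gelatinase that cuts denatured collagen and basement membrane, had 1.04, 0.937 and 1.35 CPM in H1299 with BRM014, against 1.66, 0.983 and 1.35 CPM with DMSO. The H1299 groups overlapped, and the log2 fold change of -0.29 had a 95% interval of -0.78 to 0.20 (edgeR adjusted p = 0.446). It was -0.08 without DMSO replicate 1 and -0.46 without DMSO replicate 2, still short of the threshold. In A549 MMP2 had 5.50, 5.08 and 4.15 CPM with BRM014, against 8.60, 7.47 and 8.06 CPM with DMSO. It fell 1.61-fold there (log2 fold change -0.69, SE 0.11, edgeR adjusted p = 0.000375), with no overlap of the groups. The H1299 interval includes the A549 value, and the difference of the responses had an edgeR adjusted p of 0.274 (log2 difference 0.41, interval -0.10 to 0.93).

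TIMP1 (ENSG00000102265), a secreted inhibitor of many metalloproteinases, changed least in H1299 among the genes called there. It ranged from 132 to 139 CPM in H1299 with BRM014, against 143 to 154 CPM with DMSO, a fall of 1.10-fold (log2 fold change -0.14, SE 0.03, edgeR adjusted p = 0.00199). In A549 it ranged from 60.9 to 66.2 CPM with BRM014, against 84.0 to 93.9 CPM with DMSO, a fall of 1.39-fold (log2 fold change -0.48, SE 0.06, adjusted p = 3.71e-05). The fall was smaller in H1299 (log2 difference 0.36, SE 0.07, edgeR adjusted p = 0.000249). The call of TIMP1 in H1299 held in all 14 alternatives, but came near the threshold in some. Its edgeR adjusted p was 0.0477 without DMSO replicate 1 (log2 fold change -0.11) and 0.0459 in the joined fit of 12 libraries (-0.14).

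TIMP2 (ENSG00000035862), the inhibitor that also takes part in pro-MMP2 activation by MMP14, ranged from 36.4 to 37.9 CPM in H1299 with BRM014, against 50.4 to 54.5 CPM with DMSO. In A549 it ranged from 149 to 161 CPM with BRM014, against 196 to 216 CPM with DMSO. The falls were of similar size, 1.41-fold in H1299 (log2 fold change -0.49, SE 0.04, edgeR adjusted p = 3.77e-11) and 1.29-fold in A549 (-0.37, SE 0.05, adjusted p = 9.75e-05). Their difference was -0.10 on the log2 scale, with a 95% interval of -0.23 to 0.04 and an edgeR adjusted p of 0.349.

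TIMP3 (ENSG00000100234), the inhibitor that binds to the extracellular matrix, had 3, 3 and 2 counts in H1299 with BRM014, against 9, 8 and 4 counts with DMSO, and it did not pass the filter on low counts there. The ratio of these summed counts per library total was 0.365, BRM014 over DMSO, with a 95% exact interval of 0.14 to 0.858 that covers counting error only. In A549 it had 2.84, 2.41 and 2.39 CPM with BRM014, against 4.73, 4.65 and 5.36 CPM with DMSO. It fell 1.91-fold there (log2 fold change -0.93, SE 0.11, edgeR adjusted p = 5.05e-05), the largest fall of the 3 inhibitor genes in A549. As background, TIMP1 and TIMP3 lie inside introns of synapsin genes on the other strand. The strand setting of the counting was not stated, so reads of those genes cannot be told apart from theirs.

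**Figure D3:**
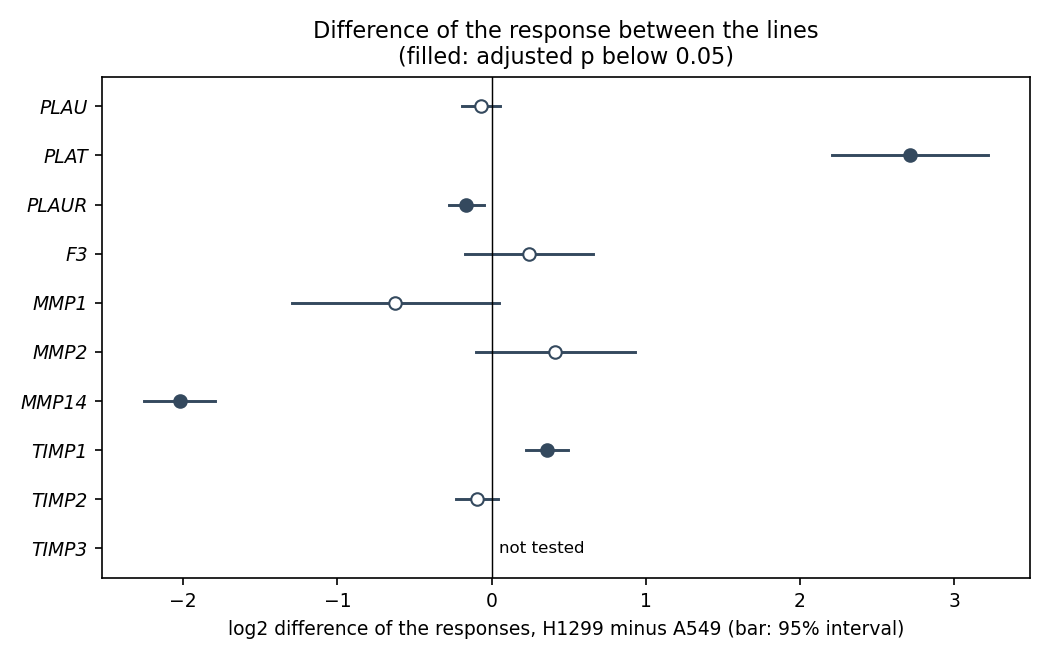
Difference of the response to BRM014 between the lines (log2, H1299 minus A549) for each gene, with 95% intervals; filled points passed the interaction test. PLAT lies at 2.71 and MMP14 at -2.02, TIMP3 was not tested, and the other 7 genes lie between -0.62 and 0.41.

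Ratios between genes within a library do not depend on scaling between libraries, and were compared for 7 pairs in each line, 14 comparisons in all. Their level depends on transcript length, so only the difference between treatments is read. With 3 libraries against 3, the exact two-sided permutation test cannot go below p = 0.1. The 12 comparisons at that p had an adjusted p of 0.117 over the 14. The log2 ratio of PLAU to PLAUR averaged -1.24 ± 0.05 with BRM014 and 0.44 ± 0.02 with DMSO in H1299 (SD, n = 3 each). In A549 it averaged -0.15 ± 0.04 with BRM014 and 1.63 ± 0.04 with DMSO (SD, n = 3 each). Relative to its receptor, the urokinase transcript was 3.20-fold lower with BRM014 in H1299 and 3.42-fold lower in A549, with no overlap of libraries in either line (exact permutation p = 0.1, adjusted 0.117).

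For the activators, the differences had opposite signs in the lines. The log2 ratio of PLAU to PLAT averaged 5.86 ± 0.27 with BRM014 and 7.77 ± 0.07 with DMSO in H1299, a difference of -1.92. In A549 it averaged 5.91 ± 0.12 with BRM014 and 5.10 ± 0.08 with DMSO, a difference of 0.80 (SD, n = 3 each; exact permutation p = 0.1 in each line, adjusted 0.117).

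The ratio of MMP14 to TIMP2 also differed with opposite signs: the log2 difference, BRM014 minus DMSO, was -0.86 in H1299 and 1.09 in A549, with no overlap of libraries in either line (exact permutation p = 0.1, adjusted 0.117). The log2 ratio of F3 to PLAU was higher with BRM014 by 1.60 in H1299 and 1.26 in A549 (exact permutation p = 0.1, adjusted 0.117). MMP1 against TIMP1 differed by -0.63 in H1299 (exact permutation p = 0.1, adjusted 0.117) and by 0.35 in A549 (exact permutation p = 0.2, adjusted 0.215), where MMP1 had 8 to 11 counts per library. MMP2 against TIMP2 differed by 0.24 in H1299 (exact permutation p = 0.5) and -0.32 in A549 (exact permutation p = 0.1, adjusted 0.117). TIMP3 against TIMP2 differed by -0.80 in H1299, from 2 to 9 TIMP3 counts per library, and by -0.55 in A549 (exact permutation p = 0.1 in each, adjusted 0.117).

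**Figure D4:**
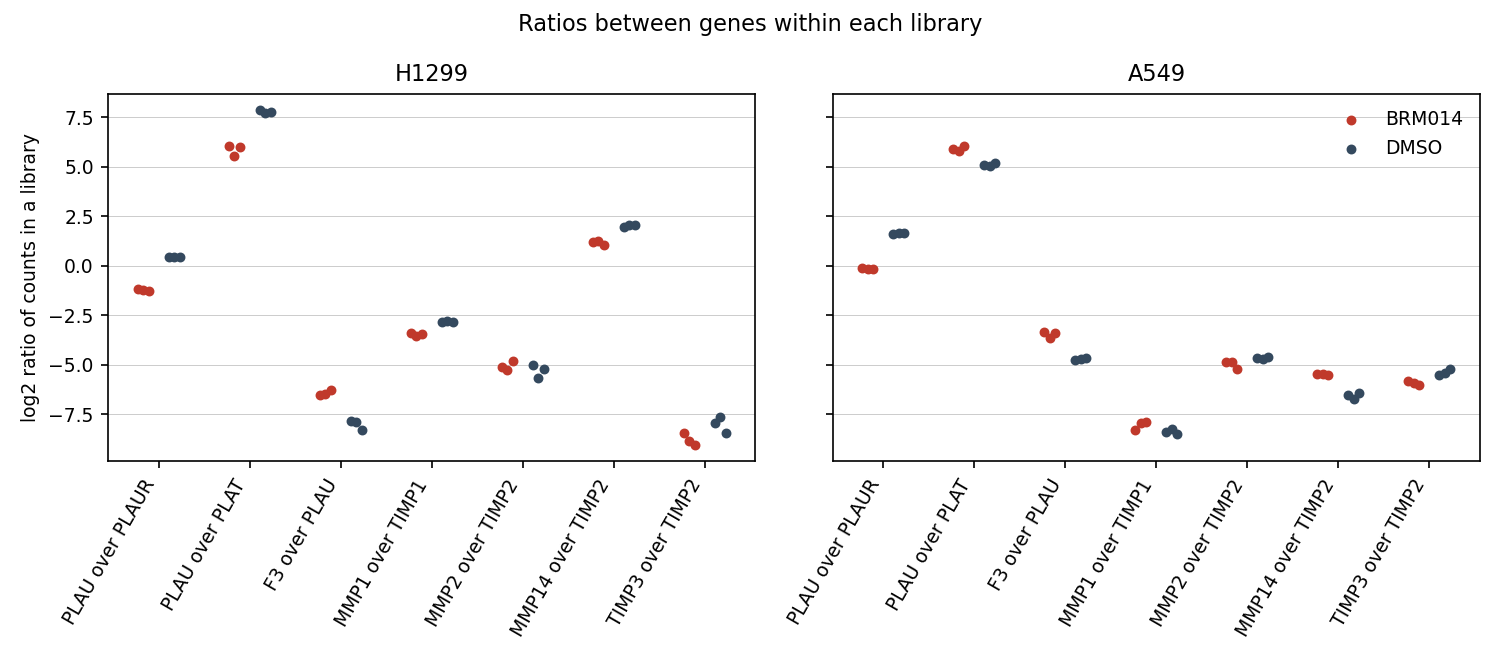
Log2 ratio of the counts of 2 genes within each library, with 0.5 added to each count, for 3 BRM014 and 3 DMSO libraries of H1299 (left) and A549 (right). PLAU over PLAUR is lower with BRM014 in both lines, and PLAU over PLAT and MMP14 over TIMP2 are lower with BRM014 in H1299 and higher in A549.

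Without the inhibitor the lines used these genes at different levels. In DMSO, all 9 genes tested in each line alone differed between H1299 and A549, 5 higher in H1299 and 4 lower, in a comparison where 85.7% of the 16466 genes tested differed (42.9% higher in H1299 and 42.8% lower), so the count by itself sets these genes apart from no others. The sizes ran from a log2 difference of -2.57 for MMP2 to 6.61 for MMP14. MMP14 averaged 211 ± 1.65 CPM in H1299 and 2.14 ± 0.27 CPM in A549 (SD, n = 3 each), a log2 difference of 6.61 with an SE of 0.07 (edgeR adjusted p = 1.22e-29). MMP1 averaged 20.7 ± 0.328 CPM in H1299 and 0.253 ± 0.0276 CPM in A549 (log2 difference 6.35, SE 0.13, edgeR adjusted p = 6.68e-24). The A549 mean of MMP1 rests on only 31 counts, so the size of this difference is less certain than that of MMP14. These ranked 386 and 418 from the highest of the 16466 genes, which include genes that passed the filter on low counts through a single line.

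PLAUR and PLAU were also higher in H1299, by log2 differences of 3.02 and 1.83, and so was TIMP1, by 0.74. TIMP3, which is given without a test because it passed the filter through A549 alone, averaged 0.195 ± 0.0556 CPM in H1299, from 21 counts, and 4.91 ± 0.386 CPM in A549 (SD, n = 3 each). MMP2, TIMP2, F3 and PLAT were lower in H1299, by log2 differences of -2.57, -1.97, -1.46 and -0.84. H1299 thus had the higher level of the receptor PLAUR, the protease genes PLAU, MMP1 and MMP14 and the inhibitor gene TIMP1, and A549 that of PLAT, F3, MMP2, TIMP2 and TIMP3. With library totals in place of TMM scaling the median log2 difference of all genes moved from 0.0158 to 0.241, and the 9 genes kept their directions and calls.

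Over the 4 groups, PLAU had the order H1299 DMSO, A549 DMSO, H1299 BRM014 and A549 BRM014, from high to low, with no overlap between neighbours. PLAUR, MMP1 and TIMP1 were higher in both H1299 groups than in both A549 groups, with H1299 DMSO first, and neighbours did not overlap except for MMP1 in the A549 groups. F3, MMP2, TIMP2 and TIMP3 were higher in both A549 groups than in both H1299 groups, with A549 DMSO first, and neighbours did not overlap except for MMP2 in the H1299 groups. F3 in A549 with BRM014, at 3.14 ± 0.444 CPM, was thus still above F3 in H1299 with DMSO, at 2.25 ± 0.324 CPM (SD, n = 3 each). For TIMP3, which did not pass the filter in H1299, the order within that line rests on few counts. These were 3, 3 and 2 with BRM014, and 9, 8 and 4 with DMSO. The share of all genes with such orders of the 4 groups was not computed. MMP14 was higher in the H1299 groups, but A549 with BRM014 stood above A549 with DMSO. PLAT was highest in A549 with DMSO and lowest in A549 with BRM014, with the H1299 groups between them and overlapping each other. The mean level of PLAT in H1299 was 3.60 times that in A549 with BRM014 and 0.558 times with DMSO.

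The 2 genes with the largest summed absolute log2 fold changes over the lines were PLAU (4.57) and PLAT (3.43). The pattern of log2 CPM over the 12 libraries, after each line's mean was subtracted, was most like that of PLAU in ENSG00000163814 (Pearson r 0.999, among 9763 genes of at least 5 CPM in each line) and most like that of PLAT in ENSG00000085662 (r 0.994, among 9764 genes). The tables do not pair these identifiers with names. ENSG00000163814 had log2 fold changes of -1.46 in H1299 and -1.32 in A549, and ENSG00000085662 -0.07 in H1299 and -0.61 in A549. These correlations are descriptions over libraries that share treatment and depth, and the highest of many such values is high by selection.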

How the data were processed

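The series holds 107 samples, of which the 12 RNA-seq libraries of H1299 and A549 were used, while the other 95 were not analysed here. By the protocols in the labels, 500 ng of total RNA went into each stranded library after ribosomal RNA was removed. Each line has a table of raw gene counts, deposited by the authors as whole numbers (24019 rows for H1299 and 24353 for A549). The genome build was hg38, and the tools were STAR 2.7.3a, Bowtie 1.2.2, cutadapt 1.14, DESeq2 and featureCounts, per the submitters' processing notes. No source used here states the annotation, the strand setting or the part of each tool.

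The count tables give Ensembl identifiers without symbols, and the name tables at hand matched 0 of the identifiers. Symbols are therefore given for the 10 genes only; the other genes of the pathway and the cell type markers were not tested, and no sequences or positions are shown. The genes and tests were chosen with earlier results of these data known. All 10 genes are named in every comparison; the most similar gene is given for the 2 with the largest summed changes.

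The tests used edgeR 4.0.16 in R 4.3.3: filterByExpr (count minimum 10 in a median library, 15 in total), TMM factors and the quasi-likelihood test, over all genes of a table. Each line was fitted alone; a joined fit of 12 libraries gave the interaction and the DMSO comparison of the lines. Standard errors are the log2 fold change over the square root of F, and 95% intervals use the test's degrees of freedom. Exact intervals cover counting error only. The steps were tested on simulated data, with independent libraries and with changes planted only in genes above a count minimum. Changes in genes of low count, and deviations shared between libraries, were not covered. Alternatives were DESeq2 size factors, library totals, DESeq2 1.42.0, limma-voom (limma 3.58.1), filters, joined fits, a replicate block and leaving out libraries. TIMP3 was left out of the tests of the joined fit, since it passed the filter in A549 alone.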

Additional observations from a re-analysis of the deposited data

Results flagged for a closer look

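The responses of 4 genes differed between the lines in the interaction test, and are listed as log2 differences, H1299 minus A549. PLAT differed by 2.71, with log2 fold changes of -0.37 in H1299 and -3.06 in A549. MMP14 differed by -2.02, with -1.35 in H1299 and 0.70 in A549. TIMP1 differed by 0.36, with -0.14 in H1299 and -0.48 in A549. PLAUR differed by -0.17, with -0.66 in H1299 and -0.47 in A549. Over the alternatives the differences ranged from 2.48 to 2.89 for PLAT, from -2.08 to -1.93 for MMP14, from 0.32 to 0.41 for TIMP1 and from -0.20 to -0.14 for PLAUR. The line, its medium and its PCR cycle number cannot be told apart in these differences. Groups of 3 libraries are too small for a test of single outlying libraries.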

How the results depend on the processing

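No log2 fold change of the 10 genes reversed its direction in any alternative fit. Each fit gave results for several genes, and of the 619 results for a gene in an alternative, 609 stayed on the same side of the threshold. The 9 in which a call was lost are all of the PLAUR interaction: 8 of them leave out a library and are given with that result, and the ninth, chosen after seeing the data, leaves out both A549 BRM014 libraries that share a header (log2 difference -0.16, adjusted p = 0.134 in edgeR). The only call gained was PLAT in H1299 without BRM014 replicate 2. The number of genes called stayed within 1.5 times its value in every alternative, at 6 to 8 in H1299, 6 to 9 in A549, 3 to 4 for the interaction and 8 to 9 in DMSO, where TIMP3 is left out of the last 2; the lowest values in the lines and in DMSO came from the filter of at least 5 CPM in 3 libraries, which leaves 6, 6 and 8 of the genes in the test. Without both libraries that share a header, 9 genes were called in A549. With single libraries left out, the counts were 7 to 8 genes in H1299, 9 in A549, 3 to 4 for the interaction and 9 in DMSO.

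A replicate block in H1299 left 7 genes called, and no call of a gene changed. The deviations of same-numbered H1299 libraries correlated at -0.0865, -0.0249 and 0.0278, so the numbers are not read as pairs. In A549, 2 BRM014 columns carry the same number, so the replicate block was fitted under both ways to give them the numbers 1 and 2, chosen after seeing the data. It left 9 genes called under each, and no call of a gene changed. With library a as number 1, the deviations of same-numbered libraries correlated at 0.693, 0.0728 and 0.483. With library b as number 1, they correlated at -0.419, -0.2 and 0.483. The headers do not say which way is right, so whether the A549 libraries are pairs by number is not settled here. Depth limits MMP1 in A549 and TIMP3 in H1299, with 59 and 29 counts over 6 libraries.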
